A study of Mus musculus with 20 samples.

Results

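The insulin-like growth factor (IGF) genes described here are the 2 ligand genes Igf1 and Igf2, the 3 receptor genes Igf1r, Igf2r and Insr, and the 2 genes of receptor substrates, Irs1 and Irs2. They were chosen by name, as the ligands, the receptors and the substrates that dock on activated receptors, and they are 7 of the 24885 genes in the count table. All 7 passed the filter on low counts, which 18918 genes passed. RNA was sequenced from mouse plantaris tendon, in 5 groups of 4 libraries, to follow tendon under a growth stimulus and to ask what changes when Igf1r is targeted in tenocytes, the fibroblasts of tendon. In all groups both Igf1r alleles carry flox sites (IGF1Rflox/flox), which mark the stretch that a recombinase removes. WT day 0 tendons (ScxCreERT2-/-) came from mice given no tamoxifen and no growth stimulus. KO day 7 and KO day 14 tendons (ScxCreERT2+/+) and WT day 7 and WT day 14 tendons (ScxCreERT2-/-) came from mice given tamoxifen and the growth stimulus. Comparisons with day 0 therefore hold stimulus and tamoxifen together, and no KO group without the stimulus was analysed here. The recombinase CreERT2, active only with tamoxifen, is driven by Scx, so deletion is targeted to cells in which Scx is active and the other cells of the tendon keep Igf1r. KO and WT thus differ in the ScxCreERT2 genotype as well as in the targeting of Igf1r, and comparisons between them hold both together. Whether the 4 libraries of a group come from 4 mice is not stated, so the errors and p-values below describe the scatter of libraries and may be technical.

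IGF1 and IGF2 are secreted growth factors that bind the IGF1 receptor, a tyrosine kinase encoded by Igf1r, which also forms hybrids with the closely related insulin receptor encoded by Insr. An activated receptor phosphorylates the docking proteins IRS1 and IRS2, which recruit PI3K and lead to Akt activation and protein synthesis. The IGF2 receptor carries no kinase: it takes up IGF2 for breakdown in lysosomes and sorts lysosomal enzymes. In tendon, IGF1 is known as a stimulus of fibroblast proliferation and collagen synthesis.

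The libraries held 32.3 to 63.5 M counts each, and the members' own counts ranged from 34 for Igf2 in a WT day 0 library to 58355 for Igf1 in a WT day 7 library. The tissue label was checked with 12 tenocyte markers, all read in every library, with Col1a2, Col1a1 and Thbs4 among the 7 most abundant genes on average. RNA of other cells was present too. Markers of skeletal muscle fibres, the cells next to a tendon, were the most uneven: the summed level of 22 such markers was 6177 to 15280 CPM (counts scaled to library size and composition) in KO day 7 libraries and 309 to 2249 CPM in WT day 7 libraries. It was 1992 to 31570 CPM in KO day 14, 3455 to 27750 CPM in WT day 14 and 32590 to 82510 CPM in WT day 0 libraries. At day 7, 17 of the 22 passed the test as higher in KO, where 9.39% of all genes did. In bulk tissue, fewer cells of a type and less RNA per cell cannot be told apart.

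Igf1r was read in every library and was not lower in either KO group than in WT of the same day. Its count covers the whole gene, so a missing floxed exon would not show in it and the deletion was not checked by it. Scx itself was higher in KO, with 557 to 1153 CPM in KO day 7 libraries and 44.8 to 57.1 CPM in WT day 7 libraries. Whether reads from the ScxCreERT2 allele add to this count was not tested.

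The sequences around the start sites are shown because the 2 substrate genes share an arrangement of letters not found in the other members' windows. Each window runs from 250 bases before to 50 bases after a gene's RefSeq start site (GRCm38.p6), 5′ to 3′ on the gene's strand. Windows were found for 6 of the 7 members, all but Insr, and those of 5 are printed. Capitals mark letters that match any of 5 motifs on either strand: the FoxO core GTAAACA, the insulin response element TGTTTTG, the E-box CACGTG, the STAT5 element TTCNNNGAA and the GC box GGGCGG. The insulin response element and the E-box were added to the search after these sequences had been seen.
Irs1, chr1:82291390-82291689, minus strand: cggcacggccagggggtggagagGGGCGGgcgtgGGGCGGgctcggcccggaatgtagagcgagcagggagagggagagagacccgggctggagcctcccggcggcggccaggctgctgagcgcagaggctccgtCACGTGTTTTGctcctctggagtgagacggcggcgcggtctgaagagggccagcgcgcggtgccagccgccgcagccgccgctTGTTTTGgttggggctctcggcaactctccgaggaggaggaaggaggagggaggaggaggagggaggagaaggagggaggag
Irs2, chr8:11008880-11009179, minus strand: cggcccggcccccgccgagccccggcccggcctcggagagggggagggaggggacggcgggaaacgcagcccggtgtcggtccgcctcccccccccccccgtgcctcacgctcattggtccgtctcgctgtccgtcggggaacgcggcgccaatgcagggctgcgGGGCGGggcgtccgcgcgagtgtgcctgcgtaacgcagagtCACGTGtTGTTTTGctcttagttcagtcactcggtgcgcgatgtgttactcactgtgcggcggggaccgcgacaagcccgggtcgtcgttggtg
Igf1r, chr7:67952007-67952306, plus strand: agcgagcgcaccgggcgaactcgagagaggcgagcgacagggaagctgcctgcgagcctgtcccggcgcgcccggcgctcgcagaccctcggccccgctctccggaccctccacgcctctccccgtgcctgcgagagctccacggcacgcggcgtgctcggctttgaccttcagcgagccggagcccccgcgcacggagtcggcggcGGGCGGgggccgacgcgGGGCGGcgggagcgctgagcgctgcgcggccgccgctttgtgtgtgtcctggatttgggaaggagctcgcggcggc
Igf2r, chr17:12769657-12769956, minus strand: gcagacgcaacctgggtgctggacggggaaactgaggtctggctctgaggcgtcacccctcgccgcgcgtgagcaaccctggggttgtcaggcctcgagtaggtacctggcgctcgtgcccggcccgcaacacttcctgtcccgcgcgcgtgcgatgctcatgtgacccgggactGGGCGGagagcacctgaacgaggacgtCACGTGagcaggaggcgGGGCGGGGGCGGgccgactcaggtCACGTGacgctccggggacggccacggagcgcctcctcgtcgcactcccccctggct
Igf1, chr10:87860861-87861160, plus strand: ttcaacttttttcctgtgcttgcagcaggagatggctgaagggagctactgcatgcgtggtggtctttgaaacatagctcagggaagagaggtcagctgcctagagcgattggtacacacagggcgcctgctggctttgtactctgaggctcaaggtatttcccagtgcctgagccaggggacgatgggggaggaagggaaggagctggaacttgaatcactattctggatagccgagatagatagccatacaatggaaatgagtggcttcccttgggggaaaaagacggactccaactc

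In the Irs1 window the E-box begins 115 bases before the start and shares 2 letters with an insulin response element, CACGTGTTTTG, and a second such element begins 32 bases before the start. The Irs2 window has an E-box 44 bases before the start, 1 base ahead of its insulin response element. Of 32851 RefSeq windows of this length, 7.15% held the E-box and 6.28% the insulin response element. In 0.408% both were present, and in 9 windows, of 8 genes, they overlapped or lay at most 1 base apart, those of Irs1 and Irs2 included. The limit of 1 base equals the spacing in the Irs2 window, and both motifs were added after these windows had been seen. The count is therefore a description and not a test of rarity. The Igf2r window held 2 E-boxes, 48 and 7 bases before the start, and no insulin response element. Igf1r held 2 GC boxes, 43 and 26 bases before the start, and neither of these motifs. GC boxes were found in 35.7% of all windows. The Igf1 window held none of the 5 motifs and had a GC content of 52.3%, close to the 52.7% median of all windows, whereas the windows of Igf1r, Igf2r, Irs1 and Irs2 had 70.7% to 76%. The Igf1 window lies inside the gene as GENCODE annotates it, which begins at base 87858265 of chr10 and has 8 transcripts. Any other start site of Igf1 was not searched for motifs. Igf2 has 4 annotated start sites, and GC boxes were found only at the 2 nearest to the gene's 3′ end. No window of these 6 genes held the FoxO core, found in 3.65% of all windows, or the STAT5 element, found in 8.3%. Such matches of letters are a description and do not show that a factor binds.

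Igf1 was the most abundant member per length in every group, and Igf2 the least abundant. On the scale of CPM per kb of exon, Igf1 averaged 25.0 ± 1.23 in WT day 0, 46.9 ± 7.45 in KO day 7, 67.1 ± 12.2 in WT day 7, 59.6 ± 12.1 in KO day 14 and 80.3 ± 14.9 in WT day 14 libraries (SD, n = 4 each). Igf2r came second in all 5 groups, with means between 12.9 and 26.9 CPM per kb. The kinase receptors and the substrates lay close together below it, between 2.14 and 7.69 CPM per kb, and their order differed between groups: Irs2 led them in WT day 0, and Insr in KO day 14 and WT day 14, while in KO day 7 Irs2 and Insr stood at 3.68 ± 0.231 and 3.67 ± 0.123 CPM per kb. Igf2 ranged between means of 0.171 CPM per kb in WT day 0 and 1.57 CPM per kb in KO day 7.

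**Figure D1:**
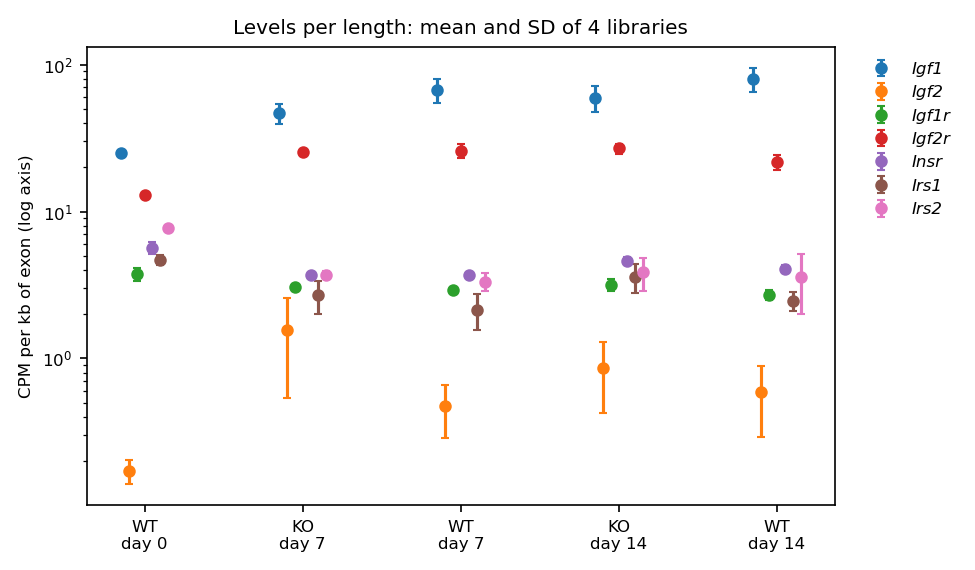
Level of each member per length in the 5 groups, as CPM per kb of exon on a log axis. Points are means of 4 libraries and whiskers their SD. Igf1 lies on top and Igf2 lowest in every group. The other receptors and substrates lie below Igf2r, and further below it in the growth groups than in WT day 0.

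The ligand gene Igf1 rose under the growth stimulus and was lower in KO than in WT. Its levels were 250, 247, 261 and 232 CPM in WT day 0 libraries, 468, 385, 443 and 562 CPM in KO day 7 libraries, and 842, 628, 573 and 616 CPM in WT day 7 libraries. At day 14 they were 612, 416, 649 and 684 CPM in KO and 854, 919, 825 and 582 CPM in WT. Every growth library was above every WT day 0 library, and every KO day 7 library was below every WT day 7 library, though the closest pair differed by little; at day 14 the genotypes overlapped because of the lowest WT library. In WT, the log2 difference from day 0 was 1.43 ± 0.17 at day 7 and 1.68 ± 0.17 at day 14 (SE; edgeR adjusted p = 3.79e-07 and 9.91e-08), a 2.69-fold and a 3.21-fold higher level. KO day 7 stood 0.90 and KO day 14 1.23 above WT day 0 on the log2 scale (two-sided exact permutation p = 0.0286 each, the smallest that 4 against 4 libraries allow).

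Between the genotypes Igf1 fell by 0.52 on the log2 scale in KO at day 7 (SE 0.16, edgeR adjusted p = 0.0389). Without single libraries this difference lay between -0.62 and -0.38, and the adjusted p was 0.134 without WT day 7 replicate 1, 0.0739 without replicate 2 and 0.0574 without replicate 4, and 0.0665, 0.122 and 0.0932 without KO day 7 replicates 1, 2 and 3. With a score of the muscle fibre markers as a covariate the difference was -0.49 with an adjusted p of 0.194. The score did not overlap between these groups, so this fit cannot separate genotype from muscle RNA. At day 14 the difference was -0.43 ± 0.16 and missed the threshold (adjusted p = 0.184), and the KO effects of the 2 days were not shown to differ (interaction 0.09 ± 0.23, adjusted p = 0.934). Averaged over both days, Igf1 fell by 0.47 in KO (SE 0.11, 95% interval -0.70 to -0.25, adjusted p = 0.00884). That call held in all 10 alternative analyses and without any of 16 libraries, with adjusted p between 0.00111 and 0.0422. Macrophages also make IGF1: the summed level of 16 macrophage markers was 5641 to 7883 CPM in KO day 7 and 5361 to 9503 CPM in WT day 7 libraries. Of the 16, 2 fell in KO at day 7, where 5.42% of all genes fell, and none was at 0 in any library. Of 12 tenocyte markers, 7 passed as higher in KO at day 7, Scx included, where 9.39% of all genes were higher. The summed levels of all 12 were 85500 to 105800 CPM in KO and 45510 to 56700 CPM in WT libraries. In these sums Col1a1 and Col1a2 averaged 39900 and 39700 CPM in KO and 19520 and 22350 CPM in WT. Tnmd, Mkx and Kera averaged 225.5, 25.8 and 126 CPM in KO and 214, 25.1 and 109 CPM in WT. The part of either cell type in the Igf1 result was not tested.

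**Figure D2:**
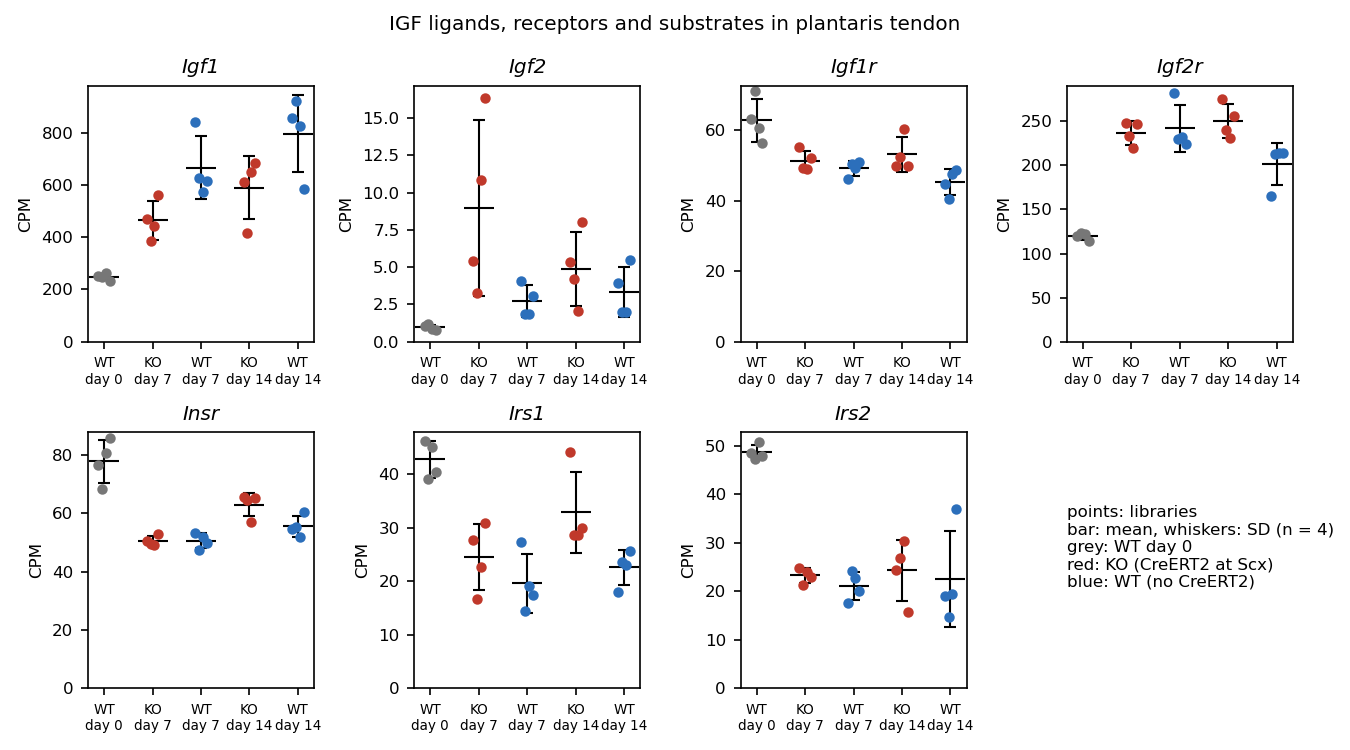
Level of each of the 7 genes in every library, in CPM, with 1 point per library, the bar at the mean and whiskers at the SD (n = 4). Igf1, Igf2 and Igf2r lie above WT day 0 in every growth library, and Insr and Irs2 below it.

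Igf2, the ligand of fetal growth and of muscle repair, was the least read of the 7 genes at day 0 and was higher in every growth group. It had 1.07, 1.19, 0.833 and 0.818 CPM in WT day 0 libraries, which is 34 to 73 counts per library. It had 5.40, 3.25, 10.9 and 16.4 CPM in KO day 7 libraries and 4.08, 1.86, 1.86 and 3.04 CPM in WT day 7 libraries. The KO day 14 libraries had 5.36, 4.18, 2.05 and 8.01 CPM and the WT day 14 libraries 3.93, 2.03, 1.98 and 5.49 CPM. All growth libraries were above all WT day 0 libraries, but the growth groups were widely spread, with coefficients of variation of 39.5% to 65.5%, and the genotypes overlapped at both days. In WT the log2 difference from day 0 was 1.47 ± 0.51 at day 7 (adjusted p = 0.0174) and 1.77 ± 0.51 at day 14 (adjusted p = 0.00734). The day 7 call was lost without WT day 7 replicate 1 (1.20, adjusted p = 0.0635), and both were lost with limma-voom (1.40 and 1.60, adjusted p = 0.0817 and 0.059).

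Between genotypes Igf2 rose by 1.72 ± 0.48 on the log2 scale in KO at day 7 (SE, adjusted p = 0.0236; two-sided exact permutation p = 0.0571). At day 14 the difference was 0.55 ± 0.48 (adjusted p = 0.609), and the interaction was -1.17 ± 0.67 (adjusted p = 0.55). The mean over both days was 1.14 ± 0.34 (adjusted p = 0.0268). The day 7 call was lost without WT day 7 replicates 2 or 3 (both 1.59, adjusted p = 0.0764 and 0.0651) and without KO day 7 replicates 3 or 4 (1.63 and 1.26, adjusted p = 0.0561 and 0.097), and in a fit to the compared groups alone it was at the edge (1.73, adjusted p = 0.0502). For the mean over both days, 6 of the 16 fits without a library missed the threshold: without WT day 7 replicate 2 (1.08, adjusted p = 0.0581), KO day 7 replicates 3 and 4 (1.10 and 0.91, adjusted p = 0.0516 and 0.0653), WT day 14 replicates 2 and 3 (both 1.05, adjusted p = 0.0556 and 0.0517) and KO day 14 replicate 4 (0.97, adjusted p = 0.054).

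Muscle RNA moved with Igf2. Among the KO day 7 libraries, ordered by Igf2 from 3.25 to 16.4 CPM, the summed fibre markers were 6177, 7781, 10560 and 15280 CPM, and among the WT day 7 libraries, ordered from 1.86 to 4.08 CPM, they were 309, 1475, 2086 and 2249 CPM. In each of the 4 growth groups the library with the most Igf2 had the most fibre marker RNA. WT day 0 ran the other way: these libraries held the most fibre RNA and the least Igf2, and within them Igf2 was lowest where the fibre sum was highest, at 82510 CPM. The 10 markers of regenerating muscle include Myog, Mymk and the neonatal myosin Myh8. Their summed level was, like Igf2, lowest in WT day 0 and highest in KO day 7 libraries. The summed means were 22.8 CPM in WT day 0, 424 CPM in KO day 7 and 230 CPM in WT day 7 libraries. They were 259 CPM in KO day 14 and 175 CPM in WT day 14 libraries. In KO day 7 libraries Myh3 and Myh8 averaged 206 and 162 CPM. Not every marker followed the sum: Myod1 averaged 8.56 CPM in WT day 0 and 3.71 CPM in WT day 7 libraries. Of the 10, 7 rose in WT day 7 against WT day 0, where 32.3% of all genes rose. None passed between genotypes at day 7, where 14.8% of all genes passed. Only Chrnd was at 0 in any library (2 libraries). With the fibre score as a covariate, the KO difference of Igf2 at day 7 shrank to 0.34 (adjusted p = 0.69), and the mean over both days to 0.38 (adjusted p = 0.386). The rise of WT day 7 over WT day 0 became larger, 3.83 on the log2 scale. The score, a mean log2 CPM, ran from 6.73 to 8 in KO day 7 and from 2.7 to 5.48 in WT day 7 libraries. In WT day 0 libraries it ran from 8.9 to 10.33. As these ranges do not overlap, the covariate cannot separate genotype or growth from muscle RNA. The part of muscle in the Igf2 result was not tested.

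**Figure D3:**
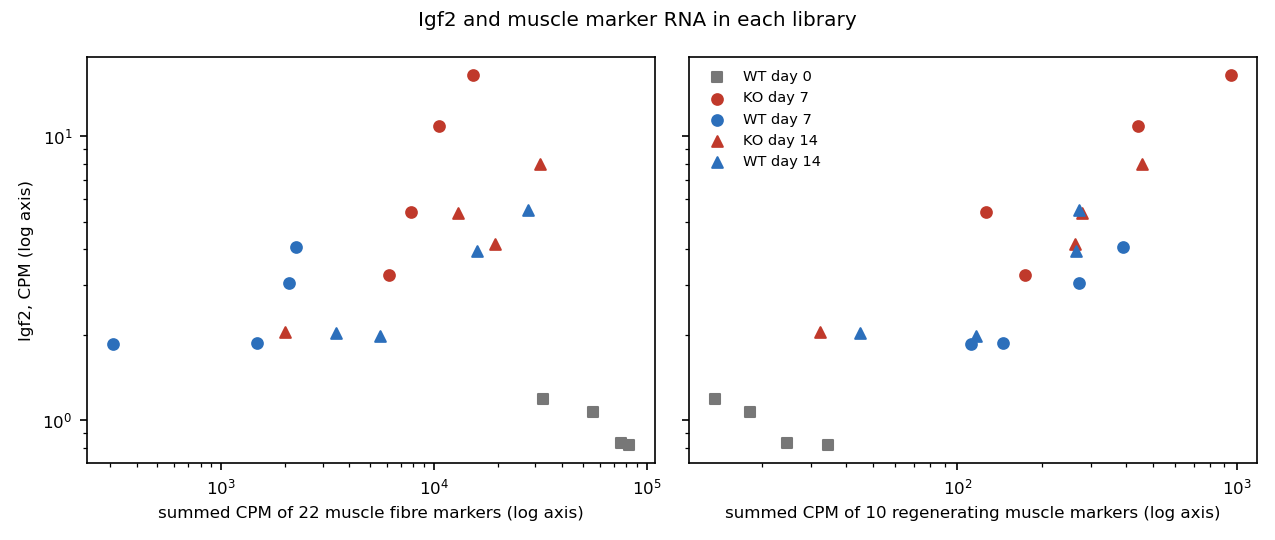
Igf2 against the summed level of 22 muscle fibre markers (left) and of 10 regenerating muscle markers (right), with 1 point per library and all axes in CPM on a log scale. Within the KO groups (red) and WT growth groups (blue) Igf2 is highest in libraries with the most muscle RNA, while the WT day 0 libraries combine the most fibre RNA with Igf2 near 1 CPM.

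Among the receptors, Igf2r rose under the growth stimulus while the 2 kinase receptors fell. Igf2r had 120, 123, 122 and 114 CPM in WT day 0 libraries, 247, 233, 219.5 and 246.5 CPM in KO day 7 libraries and 281, 229.8, 232 and 224 CPM in WT day 7 libraries. It had 275, 240.0, 230.4 and 256 CPM in KO day 14 and 166, 213, 214 and 214 CPM in WT day 14 libraries. No growth library overlapped WT day 0, and the growth groups lay within a narrow band except for WT day 14, which lay below the rest. In WT the log2 difference from day 0 was 1.01 ± 0.09 at day 7 and 0.75 ± 0.09 at day 14 (SE, adjusted p = 1.65e-08 and 1.4e-06). In WT day 14 against WT day 7, Igf2r fell by 0.26 (SE 0.09, adjusted p = 0.0369). That call rested on few libraries: the value was -0.18 without WT day 7 replicate 1 and -0.17 without WT day 14 replicate 1 (adjusted p = 0.144 and 0.135), and the adjusted p was 0.0516 and 0.0548 without WT day 7 replicates 2 and 3. It was also lost without the filter on low counts (adjusted p = 0.0517), in a fit to the compared groups alone (0.106) and with the muscle score (0.118). The score did not overlap between WT day 7 and WT day 14 libraries, so the fit with it cannot separate day from muscle RNA.

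Igf2r did not pass between KO and WT at day 7 (-0.03 ± 0.09, 95% interval -0.21 to 0.15, adjusted p = 0.859). At day 14 all 4 KO libraries were above all 4 WT libraries (exact permutation p = 0.0286), with a log2 difference of 0.31 ± 0.09 that missed the threshold over all genes in edgeR (adjusted p = 0.0897) and passed in DESeq2 (adjusted p = 0.0245). The interaction of genotype and day was 0.34 ± 0.13 (adjusted p = 0.347). Airn, the antisense transcript that silences the paternal Igf2r allele in mouse tissues, overlaps the gene on the other strand and had 3.88% as many counts as Igf2r.

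Igf1r, encoding the IGF1 receptor, was 56.4 to 70.9 CPM in WT day 0, 49.0 to 55.02 CPM in KO day 7, 46.1 to 50.8 CPM in WT day 7, 49.8 to 60.4 CPM in KO day 14 and 40.6 to 48.7 CPM in WT day 14 libraries. Only the KO day 14 range reached into that of WT day 0. The fall from day 0 in WT was the smallest of the 7 genes' changes, -0.35 ± 0.08 at day 7 and -0.47 ± 0.08 at day 14 (adjusted p = 0.000865 and 7.86e-05). KO minus WT was 0.06 ± 0.08 at day 7, with a 95% interval of -0.10 to 0.22 that allows a level at most 0.10 lower in KO on the log2 scale. At day 14 it was 0.23 ± 0.08 (95% interval 0.07 to 0.39, adjusted p = 0.162), with no overlap between genotypes.

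Insr, the insulin receptor gene, fell under the growth stimulus. It had 76.7, 68.5, 80.6 and 85.9 CPM in WT day 0 libraries, 50.4, 49.5, 49.2 and 52.9 CPM in KO day 7 libraries and 53.2, 47.6, 52.0 and 49.8 CPM in WT day 7 libraries. It had 65.5, 64.5, 57.0 and 65.3 CPM in KO day 14 and 54.8, 55.5, 51.8 and 60.5 CPM in WT day 14 libraries. All growth libraries were below WT day 0, those of the 2 genotypes were interleaved at day 7, and 3 of 4 KO libraries were above all WT libraries at day 14. In WT the log2 difference from day 0 was -0.62 ± 0.07 at day 7 and -0.49 ± 0.07 at day 14 (adjusted p = 4.29e-07 and 1.53e-05). Insr was the only member to change between KO day 14 and KO day 7, rising by 0.32 ± 0.07 (adjusted p = 0.00611), and this call held in all 10 alternatives and without any single library. In WT the same step was 0.14 ± 0.07 (adjusted p = 0.169), and the 2 steps were not shown to differ (interaction 0.18 ± 0.10, adjusted p = 0.538). KO minus WT was 0.00 ± 0.07 at day 7 (95% interval -0.15 to 0.14) and 0.18 ± 0.07 at day 14 (adjusted p = 0.213).

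The substrate genes Irs1 and Irs2 fell the most of the receptor side and fell by similar amounts. Irs1 had 46.2, 39.2, 45.2 and 40.5 CPM in WT day 0 libraries, 27.8, 16.8, 22.7 and 30.9 CPM in KO day 7 libraries and 27.3, 14.6, 19.1 and 17.5 CPM in WT day 7 libraries. It had 44.2, 28.7, 28.7 and 29.9 CPM in KO day 14 and 18.1, 23.7, 23.0 and 25.7 CPM in WT day 14 libraries. Apart from the highest KO day 14 library, every growth library was below WT day 0, and at day 14 all KO libraries were above all WT libraries. The log2 difference from day 0 in WT was -1.12 ± 0.20 at day 7 and -0.92 ± 0.20 at day 14 (adjusted p = 6.45e-05 and 0.000661). With the muscle score as a covariate the day 7 difference was -0.83 (adjusted p = 0.0907), though the score did not overlap between these groups.

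Between genotypes Irs1 passed only in the mean over both days, where it rose by 0.43 ± 0.14 in KO (adjusted p = 0.0374). At single days the KO difference was 0.32 ± 0.20 at day 7 (adjusted p = 0.278) and 0.54 ± 0.20 at day 14 (adjusted p = 0.17; exact permutation p = 0.0286). The call for the mean was lost in a fit to the compared groups alone (0.43, adjusted p = 0.0604), with the muscle score (0.34, adjusted p = 0.189) and in 9 of 16 fits without a library. These 9 were without WT day 7 replicates 2, 3 and 4 (0.38, 0.43 and 0.41, adjusted p = 0.0737, 0.0548 and 0.0629), KO day 7 replicates 1 and 4 (0.41 and 0.37, 0.0612 and 0.085), WT day 14 replicates 1, 2 and 3 (0.39, 0.44 and 0.44, 0.0768, 0.0552 and 0.0548) and KO day 14 replicate 1 (0.35, 0.085). As the muscle score did not overlap between the genotypes at day 7, the fit with it cannot separate genotype from muscle RNA.

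Irs2 had 48.5, 47.3, 50.8 and 47.8 CPM in WT day 0 libraries, 24.8, 21.4, 23.9 and 23.0 CPM in KO day 7 libraries and 17.6, 24.1, 22.7 and 20 CPM in WT day 7 libraries. At day 14 it had 24.3, 26.8, 30.4 and 15.8 CPM in KO and 18.9, 14.8, 19.5 and 37.0 CPM in WT. All growth libraries were below WT day 0 and the genotypes overlapped at both days, with the widest spread at day 14. The log2 difference from day 0 in WT was -1.20 ± 0.22 at day 7 and -1.11 ± 0.22 at day 14 (adjusted p = 9.8e-05 and 0.000324). KO minus WT was 0.14 ± 0.22 at day 7 and 0.11 ± 0.22 at day 14 (adjusted p = 0.709 and 0.855), with intervals of -0.28 to 0.56 and -0.32 to 0.54. Irs2 and Insr are also abundant in fat. All 12 adipocyte markers fell in WT day 7 against WT day 0, where 31.8% of all genes fell. Their summed level was 418 to 947 CPM in WT day 7 and 3594 to 5631 CPM in WT day 0 libraries. Of the 12, only Cidea was at 0 in any library (1 library), and the part of adipocytes in these falls was not tested.

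Set together, all 7 members passed in WT day 7 against WT day 0, 3 higher and 4 lower, where 64.1% of all tested genes passed (32.3% higher and 31.8% lower). All 7 passed in WT day 14 against WT day 0 in the same directions, where 54.3% of genes passed (28% higher and 26.2% lower); the 2 comparisons share the WT day 0 libraries. Markers of other cells moved in both: in WT day 7 against WT day 0, 20 of 22 muscle fibre markers and 12 of 12 adipocyte markers fell and 15 of 16 macrophage markers rose. In WT day 14 against WT day 0, 14 of the 22 muscle fibre markers fell and 2 rose, all 12 adipocyte markers fell and 11 of the 16 macrophage markers rose. With the muscle score as a covariate 6 of the 7 members still passed in WT day 7 against WT day 0, all but Irs1. As the score did not overlap between these groups, that fit cannot separate growth from muscle RNA. Only Igf2r passed in WT day 14 against WT day 7 (where 30.4% of genes passed, 16% higher and 14.3% lower), and only Insr in KO day 14 against KO day 7 (15.7%, 7.09% higher and 8.57% lower). Between genotypes, 2 of 7 passed at day 7, Igf2 higher and Igf1 lower, where 14.8% of genes passed (9.39% higher and 5.42% lower). At day 14 none of the 7 passed where 1.78% of genes did (1.06% higher and 0.719% lower), although in 3 of the 7, Igf1r, Igf2r and Irs1, all 4 KO libraries lay above all 4 WT libraries. Over all tested genes 2.99% had all 4 KO libraries above and 3.14% had all 4 below at that day. In the mean of both days 3 of 7 passed, Igf2 and Irs1 higher and Igf1 lower, where 19% of genes passed (10.5% higher and 8.51% lower). No member passed the interaction and no gene of the 18918 did so in edgeR, with 2039 genes at an unadjusted p below 0.05 and 190 called by DESeq2. The members' median log2 difference between KO and WT was 0.06 at day 7 and 0.23 at day 14, beside medians of -0.01 over all genes.

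**Figure D4:**
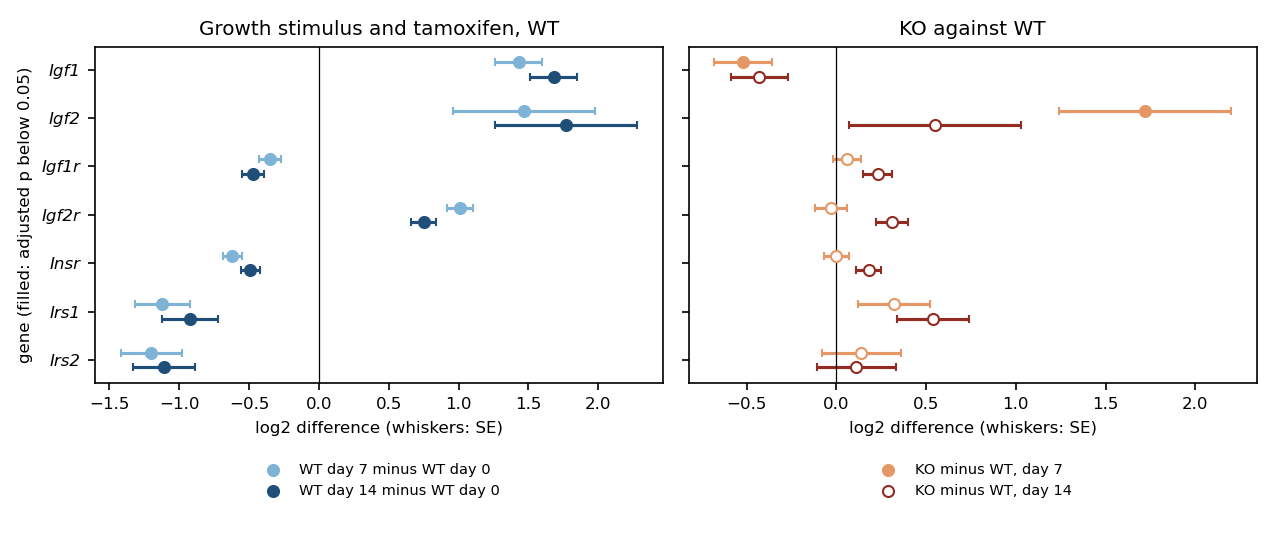
Log2 differences of the 7 genes, for WT day 7 and day 14 against WT day 0 (left) and for KO against WT at each day (right). Whiskers are SE and filled points passed at an adjusted p below 0.05. All 14 points on the left are filled, against 2 on the right, Igf1 and Igf2 at day 7.

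Ratios within a library need no scaling between libraries, and they are given as a description. The Igf1 to Igf2 ratio per kb was 120 to 181 in WT day 0, 19.9 to 68.4 in KO day 7, 117 to 195 in WT day 7, 49.4 to 183 in KO day 14 and 61.3 to 262 in WT day 14 libraries. KO day 7 was thus the only group to lie wholly below WT of the same day. Igf2r exceeded Igf1r per kb by 3.13 to 3.65 times in WT day 0 and by 6.71 to 11.02 times in all growth libraries. The kinase receptors changed less against each other: Igf1r over Insr had medians between 0.643 and 0.816 in the 5 groups. The ratio of Irs1 to Irs2 had a median of 0.601 in WT day 0 and 0.966 in KO day 14, the highest of the groups, with a range of 0.652 to 1.31 there against 0.481 to 1.11 in WT day 14.

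For each member the genes with the most similar profile were taken as those with the highest Pearson r of log2 CPM over the 20 libraries, among 11186 genes, and no p is given, as these libraries share groups and depth. Igf2 was closest to 3 muscle genes, the slow troponin Tnnt1 (r = 0.896), the myosin light chain Myl6b (0.888) and Myh8 (0.884), and within groups r was still 0.788, 0.817 and 0.861. Igf2r was closest to Rnf144a (0.986), the membrane repair gene Myof (0.968) and the matrix peroxidase Pxdn (0.966). Igf1 was closest to the Golgi gene Cog2 (0.961), Kdelc1 (0.960) and Fbxo38 (0.957). Insr was closest to Krba1 (0.971), Sorbs2 (0.965) and Tcea3 (0.951), and Igf1r to the Hedgehog receptor Ptch1 (0.905), Trp53bp2 (0.899) and Camk1d (0.885). Irs1 was closest to Rab30 (0.920), Plekha5 (0.911) and Zfhx4 (0.908), and Irs2 to the proteoglycan Spock2 (0.942), the triglyceride enzyme Dgat2 (0.929), one of the adipocyte markers, and Eid2b (0.928).

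The proteins that hold and release IGFs outside the cell changed in both directions under the growth stimulus. Of 12 tested genes of binding proteins, their proteases and protease inhibitors, 4 rose and 5 fell in WT day 7 against WT day 0, where 32.3% of all genes rose and 31.8% fell, and 6 rose and 4 fell in WT day 14 against WT day 0, where 28% rose and 26.2% fell. Pappa, a protease that cleaves IGF binding proteins and so releases IGF, rose by 3.38 ± 0.36 and 3.14 ± 0.36, and its inhibitor Stc1 by 2.13 and 2.30, on the log2 scale. At day 7 Igfbp6, a binding protein that prefers IGF2, changed by -2.52 ± 0.21 and Igfbp5, abundant in tendon, by -1.62 ± 0.20. Between genotypes at day 7, 3 of the 12 rose in KO and none fell, where 9.39% of all genes rose: Igfbp6 by 0.97 ± 0.20 (350 ± 75.9 CPM in KO and 179 ± 30.4 CPM in WT, SD, n = 4; adjusted p = 0.00475), the protease Htra1 by 0.49 ± 0.13 and Stc2 by 0.51 ± 0.17. None of the 12 passed at day 14, where 1.78% of all genes did. In the mean of both days, where 10.5% of all genes were higher, Igfbp6, Igfbp5 and Htra1 were higher in KO, by 0.62, 0.50 and 0.27. Igfbp1 was not analysed here.

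Of 21 tested adaptors, phosphatases and inhibitors that act at the receptors, 9 rose and 9 fell in WT day 7 against WT day 0, where 32.3% of all genes rose and 31.8% fell. Grb10, an adaptor that dampens insulin and IGF receptors, rose by 2.65 ± 0.11 on the log2 scale, to 498 ± 59.3 CPM in WT day 7 libraries, against 79.2 ± 6.498 CPM in WT day 0 libraries (SD, n = 4; adjusted p = 1.5e-12), a larger change than that of any of the 7 members. Sh2b2, an adaptor of the insulin receptor, rose by 1.82, and Sos2 and Ptpn11, which link receptors to Ras, changed by -0.92 and -0.50. Between genotypes 4 rose and 1 fell in KO at day 7, where 9.39% of all genes rose and 5.42% fell. Ide, encoding the protease that degrades insulin, was the only gene of this list to pass at both days: it averaged 115 ± 14.5 CPM in KO and 74.0 ± 4.19 CPM in WT at day 7, and 165 ± 19.8 CPM in KO and 87.8 ± 5.33 CPM in WT at day 14 (SD, n = 4). The log2 differences were 0.64 ± 0.11 and 0.91 ± 0.11 (adjusted p = 0.000753 and 4.51e-05). Socs1, an inhibitor of cytokine signalling that also binds the insulin receptor, rose by 0.95 ± 0.21 in KO at day 7, Shc2 by 0.46 and Sh2b1 by 0.44. Insrr had 78 counts over all libraries and was not tested, and Irs4 was not analysed here.

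Further down the pathway, 5 of 18 PI3K and Akt genes rose and 9 fell in WT day 7 against WT day 0, beside 32.3% and 31.8% of all genes. The regulatory subunit gene Pik3r1 fell by 1.41 on the log2 scale, with 117 ± 8.53 CPM in WT day 7 and 311 ± 26.3 CPM in WT day 0 libraries, while Pik3r3 rose by 1.79 ± 0.22, and Akt2, the isoform of the insulin response, changed by -0.88 ± 0.10. Between genotypes at day 7, 3 rose and 3 fell in KO, beside 9.39% and 5.42% of all genes. Pik3r2 and the PI3K inhibitor Pik3ip1 rose by 0.68 ± 0.13 and 0.77 ± 0.21, and the catalytic subunit gene Pik3cb changed by -0.48 ± 0.14. None passed at day 14, where 1.78% of all genes did.

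The growth hormone axis is known to drive Igf1 transcription in liver through Stat5b. Of its 7 genes, 1 rose and 3 fell in WT day 7 against WT day 0, where 32.3% of all genes rose and 31.8% fell, and 2 rose and 3 fell in WT day 14 against WT day 0, where 28% rose and 26.2% fell. The receptor gene Ghr changed by -1.56 ± 0.11 in WT day 7 against WT day 0, with 74.4 ± 6.6 CPM in WT day 7 and 220 ± 29.9 CPM in WT day 0 libraries (SD, n = 4; adjusted p = 9.46e-10). Stat5b changed by -1.14 ± 0.11 and its target Cish by -1.67 ± 0.24. Socs2, another target, rose, by 0.62 ± 0.15 at day 7 and 1.54 ± 0.15 at day 14. Prlr, encoding the prolactin receptor, rose by 1.20 ± 0.36 in WT day 14 against WT day 0 (adjusted p = 0.00827). No gene of the 7 on this list passed between genotypes at day 7 or day 14, where 14.8% and 1.78% of all genes passed. In the mean of both days, where 8.51% of all genes fell, Jak2 fell by 0.15 in KO (adjusted p = 0.0386).

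Igf2 is imprinted in mice and lies beside H19, a non-coding RNA read from the other parental allele. Of 12 tested genes of this locus and of other imprinted growth genes, 4 rose and 2 fell in WT day 7 against WT day 0, where 32.3% of all genes rose and 31.8% fell. Mest rose by 4.52 ± 0.47, H19 by 4.42 ± 0.50, Plagl1 by 2.08 ± 0.25 and Meg3 by 1.36 ± 0.17. H19 averaged 1131 CPM in KO day 7 and 797.5 CPM in WT day 7 libraries, against 37.3 CPM in WT day 0 libraries. Between genotypes at day 7, Dlk1 rose by 1.19 ± 0.28 (adjusted p = 0.0109) and the cell cycle inhibitor Cdkn1c by 0.69 ± 0.21 (adjusted p = 0.0321) in KO, while H19 differed by 0.50 ± 0.44 (adjusted p = 0.468). None of the 12 passed at day 14, where 1.78% of all genes did. In the mean of both days 3 of the 12 were higher in KO and 1 lower, where 10.5% of all genes were higher and 8.51% lower. Ndn, Dlk1 and Cdkn1c differed by 0.33, 0.66 and 0.45, and Mest by -0.87 (adjusted p = 0.0451). Igf2bp3, which binds Igf2 mRNA, rose by 1.95 ± 0.32 in WT day 7 against WT day 0 and did not pass between genotypes. Ins2 was not analysed here, and Igf2bp1, with 22 counts over all libraries, was not tested.

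Across these lists the median log2 difference in WT day 7 against WT day 0 was -0.35 for the binding proteins, 0.01 for the adaptors and inhibitors, -0.24 for PI3K and Akt genes, 0.13 for the growth hormone axis and 0.47 for the imprinted genes, beside 0.02 over all genes. Between KO and WT at day 7 the medians were 0.00, 0.14, 0.06, 0.05 and 0.23 in the same order, beside -0.01 over all genes.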

How the data were processed

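The authors deposited raw counts, whole numbers for 24885 genes in 20 libraries, none of which sums to less than 21. Per the submitters' processing notes, FastQC and STAR were used with the build mm10. Versions, the counting tool and the strand setting: not given in the sources used here. A gene and its antisense partner can therefore not be told apart, and genes overlapping a member had 0.114% to 4.93% of its count. A second file holds log2 fold changes of the authors' edgeR comparisons, per the file headers. Its p-values and FDRs, which the authors computed, were read only for the closing section.

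All 20 libraries entered 1 fit in R 4.3.3 and edgeR 4.0.16 (filterByExpr, TMM, robust quasi-likelihood, 1 mean per group). Adjusted p is that of edgeR's quasi-likelihood test after Benjamini-Hochberg correction over the 18918 tested genes, and a gene passed below 0.05. CPM is the count per 1e6 after TMM scaling, and log2 CPM used a prior count of 2. Levels per kb used exon lengths of GENCODE vM21 on GRCm38, which held 24874 of the IDs. Fitting was tested on simulated data. Exact permutation tests are two-sided, over 70 arrangements of 4 against 4 libraries. Alternatives changed the scaling (RLE, upper quartile, library sizes without muscle fibre and mitochondrially encoded genes), the filter (none, or 1 CPM or more in 4 or more libraries), the tool (DESeq2 1.42.0, or voom in limma 3.58.1), the libraries (compared groups alone, or each library omitted) or the model (replicate block, or a muscle score, the mean log2 CPM of 22 fibre markers, as covariate). No 2 libraries of a group looked like duplicates, as the lowest chi-square per degree of freedom was 14.2.

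Named were the 7 members and Scx, up to 4 genes of a list per comparison (those passing with the smallest p, or 2 where none passed) and the 3 most similar genes of each member with a mean of at least 5 CPM. H19 between genotypes, Col1a1, Col1a2, Thbs4, Tnmd, Mkx, Kera, Myog, Mymk, Myod1, Myh3, Chrnd and Cidea were named outside that rule, after their values were seen. The members and lists were chosen with earlier results of these data known.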

Additional observations from a re-analysis of the deposited data

Results flagged for a closer look

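In 4 of the 35 sets of 4 libraries (7 genes in 5 groups) a library stood apart from the other 3 of its group by the test for such gaps (Dixon, 95% level); chance alone flags about 1 in 20 such sets. For Igf2r, WT day 7 replicate 1 was the highest at 281.4 CPM, with the others at 224 to 232 CPM. For the same gene, WT day 14 replicate 1 was the lowest at 165.6 CPM, with the others at 213 to 214 CPM. For Insr, KO day 14 replicate 3 was the lowest at 56.96 CPM, with the others at 64.5 to 65.5 CPM. For Irs1, KO day 14 replicate 1 was the highest at 44.16 CPM, with the others at 28.7 to 29.9 CPM.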

How the results depend on the processing

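Over all genes, the muscle score as a covariate left 1035 calls for KO against WT at day 7 (2802 without it; 76.1% of the calls higher in KO, against 63.4%), 2031 for the mean of both days (3587; 67.4% against 55.1%), 6180 for WT day 7 against WT day 0 (12133) and 2987 for WT day 14 against WT day 7 (5745). DESeq2 called 759 genes for KO against WT at day 14 (337 in edgeR) and 190 for the interaction (0 in edgeR), and the compared groups alone gave 86 at day 14. Without single libraries the counts ranged from 1440 to 2659 at day 7, from 152 (without WT day 14 replicate 1) to 1672 (without WT day 14 replicate 4) at day 14, from 0 to 11 for the interaction and from 1693 to 2956 for KO day 14 against KO day 7. Whether libraries with the same replicate number belong together is not stated. Over 40 same-numbered pairs the correlation of deviations ran from -0.165 to 0.272, with a median of 0.047 and 14 pairs above 0.1. Pairs with different numbers were not compared, so this cannot show whether the numbers mark a shared batch. With the replicate number as a block, 3141 and 345 genes were called between genotypes at day 7 and day 14, and of the members' calls only the fall of Igf2r in WT day 14 against WT day 7 was lost (-0.26, adjusted p = 0.0521). The members' differences that changed sign passed neither before nor after: Insr at day 7 without a filter (0.01), Irs2 with limma-voom in the interaction (0.01) and in WT day 14 against WT day 7 (0.00), and, with the muscle score, Igf2 in the interaction (0.08) and in WT day 14 against WT day 7 (-1.22) and Insr in WT day 14 against WT day 7 (-0.01). Leaving out a library turned uncalled differences within these ranges: between genotypes Igf2r (-0.06 to 0.06) and Insr (-0.03 to 0.03) at day 7 and Irs2 at day 14 (-0.05 to 0.46), in the interaction Igf1 (-0.05 to 0.22) and Irs2 (-0.19 to 0.31), in WT day 14 against WT day 7 Igf2 (-0.04 to 0.58) and Irs2 (-0.25 to 0.25), and in KO day 14 against KO day 7 Igf1r (-0.02 to 0.08) and Irs2 (-0.06 to 0.22). Differences that passed only in an alternative were Igf2 in KO day 14 against KO day 7 with the muscle score (-1.14, adjusted p = 0.0192), Igf1 (-0.55, adjusted p = 0.0341) and Igf2r (0.34, adjusted p = 0.0374) at day 14 without WT day 14 replicate 4, Igf1 in KO day 14 against KO day 7 without KO day 14 replicate 2 (0.48, adjusted p = 0.0441), and in the mean of both days Igf1r (0.16, adjusted p = 0.0442) and Irs2 (0.30, adjusted p = 0.048) without WT day 14 replicate 4 and Igf2r without WT day 7 replicate 1 (0.19, adjusted p = 0.0421). The cause of these shifts was not tested. No scaling moved the median of all genes by over 0.1. Igf2 had the fewest counts, and its low level limits its precision. All p-values here are edgeR's unless DESeq2 or limma-voom is named.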

Other observations

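The authors' deposited table gives the same direction for Igf1 and Igf2 between KO and WT at day 7 as the fit used here, with log2 fold changes of -0.52 (FDR 0.0332) and 1.72 (FDR 0.0194), and no member under an FDR of 0.05 at day 14, where Igf2r was nearest (0.32, FDR 0.0826). In the same authors' deposited table, the column whose header names KO day 14 against WT day 7 equals the difference between the KO effects at day 14 and day 7 in all 13266 genes (tolerance 0.001), and it lies within that tolerance of the named contrast in 27 genes.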
